A study of Mus musculus with 12 samples.

Results

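A set of 9 complement genes, of the 55335 genes listed in the count files, was followed in sorted mouse neutrophils. They were chosen by their role in the pathway, without a rule on measured values but with earlier results of these data known. The set holds the components C3, Cfb and Cfp, the anaphylatoxin receptors C3ar1, C5ar1 and C5ar2, and the regulators Cd55, Cd59a and Cr1l. RNA was sequenced from 12 libraries in 3 groups of 4. PyMT TANs (tumor-associated neutrophils) came from mammary tumors of mice that carry the polyoma middle T oncogene and have an intact Cxcr2 gene. PyMT-Cxcr2-/- TANs came from mammary tumors of mice with the same oncogene and a germline deletion of Cxcr2, the chemokine receptor that guides neutrophils out of the marrow and into tissue. WT BM neutrophils came from the bone marrow of wild-type mice, which carry neither the oncogene nor the deletion. All mice were 10 weeks old, on an FVB background and housed under SOPF (specific and opportunistic pathogen free) conditions. The cells were sorted as CD45+ CD11b+ Ly6G+ F4/80- after an enrichment for CD11b. The oncogene is driven by a mammary tumor virus promoter that is active in mammary epithelium. Cxcr2 is absent from every cell of the knockout mice and not from neutrophils alone. No marrow of tumor-bearing mice or of Cxcr2-/- mice was analysed here. Tissue, tumor and enzymatic digestion of the tumor therefore cannot be told apart in a comparison of TANs with WT BM neutrophils. For PyMT-Cxcr2-/- TANs the Cxcr2 genotype cannot be told apart from these either. The labels do not say whether a library was made from 1 mouse or from a pool, so the p-values measure the spread between these libraries.

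Complement is a cascade of serum and cell-made proteins that tags microbes and damaged cells. Its routes meet at the cleavage of C3, whose large fragment coats the target and whose small fragment, C3a, is a signal read by C3ar1. Further on, C5 is cleaved and its fragment C5a draws and arms neutrophils through C5ar1. Factor B (Cfb) supplies the protease of the amplifying alternative route and properdin (Cfp) holds that enzyme together. Neutrophils store properdin in granules and release it at sites of inflammation, and they shield their own membrane with regulators: Cd55 (decay-accelerating factor) takes convertases apart, Cr1l (Crry, a rodent regulator) does so and also helps to degrade C3b, and Cd59a blocks the last step, the membrane pore. FVB mice of common substrains are known to lack functional C5, the product of Hc, and the allele was not examined here.

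The members lie on 6 chromosomes of mm10 (GENCODE annotation, whole genes). C3 is at chr17:57203970-57228136, Cfb at chr17:34856374-34862518 and Cfp at chrX:20925454-20931555. C3ar1 is at chr6:122847138-122856161, while C5ar1 at chr7:16246743-16259540 and C5ar2 at chr7:16234585-16244154 are neighbors. Cd55 at chr1:130439027-130462744 and Cr1l at chr1:195097382-195131586 share a chromosome, and Cd59a is at chr2:104095801-104115354. Counts were taken over exons. Of Cfb's exon length 79.5% also belongs to Gm20547, a read-through gene on the same strand that had 0 counts in the 12 libraries, so Cfb's reads may be undercounted. Cd55b and Cd59b, near copies of Cd55 and Cd59a, reached at most 16 and 23 counts in any library.

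Promoters are shown for the members with the largest called differences between PyMT TANs and marrow neutrophils: C3, Cfp and Cd55, which were lower in TANs, and C3ar1, which was higher. Each run is the 250 bases before the RefSeq start site in the C57BL/6J reference (GRCm38.p6, RefSeq), read 5′ to 3′ along the gene's strand. Capitals mark matches on either strand to letters of a C/EBP site (TTNNGNAA), a PU.1 site (GAGGAA), an Sp1 site (GGGCGG) or a TATA box (TATAAA). C3 is chr17:57228137-57228386, Cfp is chrX:20931556-20931805, Cd55 is chr1:130462745-130462994 and C3ar1 is chr6:122856158-122856407, all on the minus strand.
C3: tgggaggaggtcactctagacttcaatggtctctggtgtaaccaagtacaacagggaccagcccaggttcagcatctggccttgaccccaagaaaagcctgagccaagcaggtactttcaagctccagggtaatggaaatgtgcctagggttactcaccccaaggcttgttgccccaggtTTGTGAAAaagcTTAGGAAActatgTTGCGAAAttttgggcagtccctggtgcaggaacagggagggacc
Cfp: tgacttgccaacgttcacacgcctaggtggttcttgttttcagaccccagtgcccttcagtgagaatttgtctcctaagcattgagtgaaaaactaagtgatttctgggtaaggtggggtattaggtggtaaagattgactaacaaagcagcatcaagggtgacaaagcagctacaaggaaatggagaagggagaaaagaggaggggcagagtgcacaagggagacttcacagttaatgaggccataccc
Cd55: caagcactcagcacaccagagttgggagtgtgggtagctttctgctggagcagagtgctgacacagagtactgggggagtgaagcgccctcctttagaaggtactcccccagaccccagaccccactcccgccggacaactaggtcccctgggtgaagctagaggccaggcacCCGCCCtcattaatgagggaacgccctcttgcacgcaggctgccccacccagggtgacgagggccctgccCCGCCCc
C3ar1: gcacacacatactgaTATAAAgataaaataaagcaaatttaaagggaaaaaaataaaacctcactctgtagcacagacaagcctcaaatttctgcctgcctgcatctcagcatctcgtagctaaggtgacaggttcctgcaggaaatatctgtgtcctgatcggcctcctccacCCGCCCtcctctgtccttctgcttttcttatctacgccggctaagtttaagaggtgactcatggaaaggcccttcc
The C3 window held 3 C/EBP matches, the nearest starting 45 bases before the start site, and no other match. The Cd55 window held 2 Sp1 matches, both on the opposite strand, the nearest starting 7 bases before the start, and 64.0% of its bases were G or C. The C3ar1 window held 1 Sp1 match, also on the opposite strand, and 1 TATA box match that lay 235 bases before the start. The Cfp window held none of the 4. Among 32851 RefSeq promoters of this length, 36.8% held the C/EBP letters, 23.3% those of PU.1, 32.7% those of Sp1 and 12.4% the TATA box, so such matches are common and describe letters and not binding. A RefSeq promoter was found for 8 of the 9 members.

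The counts on genes ran from 25032704 to 43092085 in PyMT TANs, from 35519181 to 51351569 in PyMT-Cxcr2-/- TANs and from 38722900 to 44310707 in WT BM neutrophils. Levels are given as CPM (counts relative to the total of the library, scaled with TMM factors over the 12 libraries), and levels of different genes are compared only as CPM per kilobase of exon. The deletion was visible in the data: Cxcr2 was between 8.82 and 10.0 CPM in PyMT-Cxcr2-/- TANs, against 1044 to 1524 CPM in PyMT TANs and 1825 to 2253 CPM in WT BM neutrophils. All 10 neutrophil markers, the deleted Cxcr2 among them, were detected in every library, so detection alone does not test the neutrophil label. Their summed levels were 10394 to 16055 CPM in PyMT TANs, 19006 to 33082 CPM in PyMT-Cxcr2-/- TANs and 100630 to 139764 CPM in WT BM neutrophils. In each TAN group 9 of the 10 lay below all marrow libraries. Ly6g, the antigen sorted for, was 20.3 to 48.0 CPM in PyMT TANs, 106 to 180 CPM in PyMT-Cxcr2-/- TANs and 475 to 656 CPM in marrow. Markers of other cells were also present in TANs. The sum of 10 macrophage markers, in CPM, was 1847 to 4389 in PyMT TANs and 2065 to 4257 in PyMT-Cxcr2-/- TANs, against 261 to 360 CPM in WT BM neutrophils, with 8 and 9 of the 10 above all marrow libraries. Adgre1, which encodes the F4/80 antigen that the sort selected against, reached 192 CPM in TANs and 12.1 CPM in marrow, while Trem2 was at or near 0 throughout. The sum of 10 mammary epithelial markers was 48.9 to 464 CPM in PyMT TANs, 85.6 to 326 CPM in PyMT-Cxcr2-/- TANs and at most 0.516 CPM in marrow. Sorted RNA was measured in bulk, so fewer cells of a type and less RNA per cell cannot be told apart.

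Among the 9 members, C3 and C5ar1 had the highest levels in WT BM neutrophils. Per kilobase, C3 stood at 323 ± 74.1 CPM (SD, n = 4) and C5ar1 at 317 ± 34.6 CPM, levels that lay within each other's spread. Cfp followed at 175 ± 19.1 CPM per kilobase, then C5ar2 at 54.3 ± 6.21, Cd55 at 27.0 ± 1.72 and Cr1l at 13.6 ± 0.315. C3ar1 at 0.496 ± 0.144 and Cd59a at 0.231 ± 0.121 CPM per kilobase were low, and Cfb had 0 counts. In TANs the order was different. C5ar1 was first in both groups, at 237 ± 40.3 CPM per kilobase in PyMT TANs and 296 ± 46.3 in PyMT-Cxcr2-/- TANs, ahead of C3 at 122 ± 26.2 and 157 ± 40.5. C3ar1 rose from the seventh to the fifth place, at 23.7 ± 8.53 and 24.6 ± 9.67 CPM per kilobase, while Cd55 went from the fifth to the seventh, at 1.45 ± 0.190 and 4.0 ± 1.90.

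**Figure D1:**
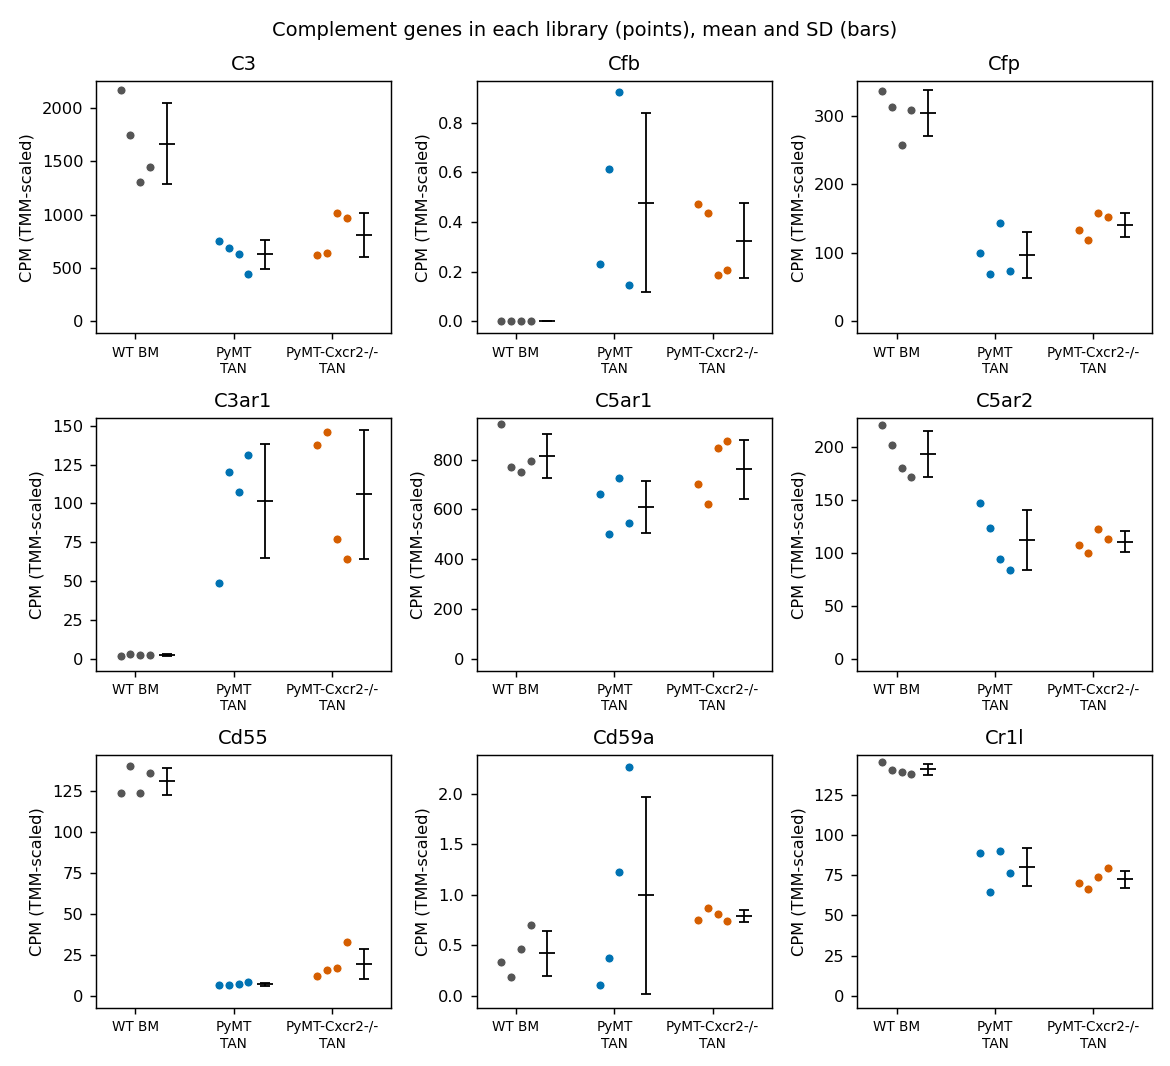
Levels of the 9 complement genes by library, in TMM-scaled CPM on linear axes; points are the 4 libraries of a group in replicate order, with the mean and SD beside them. C3, Cfp, C5ar2, Cd55 and Cr1l lie lower in every TAN library than in every WT BM library, C3ar1 lies higher, and Cd55 also separates the TAN groups, with 6.26 to 8.33 CPM in PyMT TANs and 11.97 to 32.9 CPM in PyMT-Cxcr2-/- TANs.

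Each of 3 comparisons was fitted to its own 8 libraries with edgeR's quasi-likelihood test, and a gene was called when its Benjamini-Hochberg adjusted p was under 0.05 over all genes tested and its change was at least 1.5-fold. PyMT TANs against WT BM neutrophils shows what differed between tumor and marrow cells with Cxcr2 intact. Of the 8 members tested, 1 was called higher (C3ar1) and 5 lower (C3, Cfp, C5ar2, Cd55 and Cr1l). Over all 17153 genes tested, 30.1% were called higher and 23.2% lower, 53.3% together. The median log2 fold change of the 8 members was -0.74, beside 0.09 over all genes. In PyMT-Cxcr2-/- TANs against the same marrow libraries, 2 of 8 were called higher (C3ar1 and Cd59a) and the same 5 lower, beside 34.4% higher and 25.1% lower of 17732 genes, or 59.5% in all. The members' median was -0.75, beside 0.09. Members whose libraries did not overlap between groups numbered 7 of 8 in each of these comparisons, beside 58.3% and 65.9% of all genes. The marrow libraries are shared, so these 2 comparisons are not independent. Between the TAN groups, Cd55 was called, 1 of the 9 members, higher in PyMT-Cxcr2-/- TANs, beside 1.38% called higher and 1.98% called in either direction of 18463 genes, and none was called lower, beside 0.596%. The members' median log2 fold change was 0.05 there, beside -0.07 over all genes. The plot of fold changes sets the 3 comparisons side by side.

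**Figure D2:**
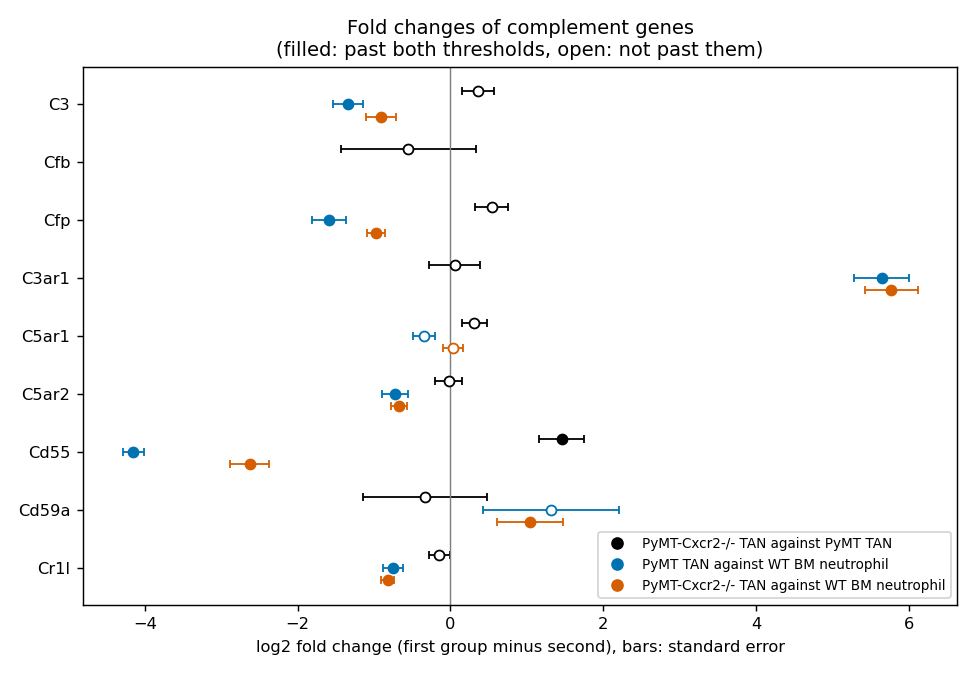
Log2 fold change of each member in the 3 comparisons (first group minus second), with bars for the standard error; filled points passed the adjusted p and the 1.5-fold limit, open points did not. C3ar1 is the far right pair at 5.64 and 5.77, Cd55 the far left pair at -4.15 and -2.63, and Cd55 has the single filled black point, at 1.46; Cfb was not tested against marrow.

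C3, the hub of the cascade, was lower in TANs. The levels in WT BM neutrophils were 2164, 1743, 1303 and 1443 CPM. In PyMT TANs they were 751, 691, 628 and 439.5 CPM, and in PyMT-Cxcr2-/- TANs 621, 637, 1011 and 965 CPM. Every TAN library was below every marrow library, and the TAN groups overlapped. C3 was 2.54-fold lower in PyMT TANs than in marrow (log2 fold change -1.34 ± 0.20, SE, adjusted p = 0.000156, edgeR). It was 1.88-fold lower in PyMT-Cxcr2-/- TANs (-0.91 ± 0.19, adjusted p = 0.000971, edgeR). The direct log2 difference between TANs was 0.36, with a 95% interval from -0.10 to 0.83, and the test was not passed (adjusted p = 0.487, edgeR). The lowest C3 library in TANs still held 18402 counts, so these values are not limited by depth.

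Cfp, properdin, followed the same order. Its level was 336, 312, 258 and 308 CPM in WT BM neutrophils. It was 99.9, 69.3, 143 and 73.6 CPM in PyMT TANs and 134, 118, 158 and 152 CPM in PyMT-Cxcr2-/- TANs. Marrow was above all 8 TAN libraries without overlap, while 1 PyMT TAN library, at 143 CPM, lay within the range of the PyMT-Cxcr2-/- group. Properdin mRNA was 3.01-fold lower in PyMT TANs than in marrow (log2 fold change -1.59 ± 0.22, adjusted p = 8.52e-05, edgeR) and 1.97-fold lower in PyMT-Cxcr2-/- TANs (-0.98 ± 0.12, adjusted p = 6.51e-06, edgeR). The direct difference of 0.54 on the log2 scale had a 95% interval from 0.06 to 1.02 but did not pass after adjustment over all genes (adjusted p = 0.258, edgeR).

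Cfb, factor B, was near the limit of detection. It had 0 counts in the 4 WT BM libraries. In PyMT TANs it was at 0.232, 0.615, 0.921 and 0.146 CPM, and in PyMT-Cxcr2-/- TANs at 0.471, 0.436, 0.186 and 0.206 CPM, from 7 to 27 counts a library. All TAN libraries thus had some factor B reads and no marrow library had any. Set against a floor of 3 counts in each marrow library, which is 0.0882 CPM on average, the mean level was at least 5.42-fold higher in PyMT TANs and at least 3.68-fold higher in PyMT-Cxcr2-/- TANs. Cfb did not pass the filter on low counts against marrow and was not tested there. Between the TAN groups the log2 difference was -0.55 with a 95% interval from -2.47 to 1.37.

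C3ar1, the receptor for C3a, showed the largest fold change of the 8 members tested against marrow, Cfb being bounded only from below. It was at 1.41, 2.91, 2.21 and 2.02 CPM in WT BM neutrophils. It was at 48.7, 121, 107 and 131 CPM in PyMT TANs and at 137, 146, 76.9 and 64.0 CPM in PyMT-Cxcr2-/- TANs. The lowest TAN library was far above the highest marrow library. The increase was 50.04-fold in PyMT TANs (log2 fold change 5.64 ± 0.36, adjusted p = 3.09e-07, edgeR) and 54.7-fold in PyMT-Cxcr2-/- TANs (5.77 ± 0.34, adjusted p = 1.11e-07, edgeR). Between the TAN groups the log2 difference was 0.05, with a 95% interval from -0.67 to 0.78 (adjusted p = 0.977, edgeR). The 3 TAN libraries with the lowest C3ar1, PyMT replicate 1 and PyMT-Cxcr2-/- replicates 4 and 3, also had the lowest summed macrophage markers, at 1847, 2065 and 2405 CPM. At the upper end the orders differed, since in PyMT TANs replicate 4 had the highest C3ar1 (131 CPM) at a macrophage sum of 3064 CPM and replicate 3 had 107 CPM at the highest sum, 4389 CPM. Per 1000 CPM of the macrophage sum, C3ar1 was 24.4 to 42.8 CPM in PyMT TANs, 31.0 to 38.5 CPM in PyMT-Cxcr2-/- TANs and 3.92 to 9.94 CPM in WT BM neutrophils. The part of macrophage RNA in the C3ar1 result was not tested.

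C5ar1, the main C5a receptor, was high in all 3 groups. Its levels were 944, 769, 749 and 792 CPM in WT BM neutrophils. PyMT TANs had 663, 502, 728 and 547 CPM, and PyMT-Cxcr2-/- TANs had 702, 622, 845 and 874 CPM. PyMT TANs lay just below marrow without overlap, and PyMT-Cxcr2-/- TANs overlapped with both groups. The 1.27-fold lower level in PyMT TANs was not called (log2 fold change -0.35 ± 0.15, 95% interval -0.67 to -0.03, adjusted p = 0.0604, edgeR). For PyMT-Cxcr2-/- TANs the log2 difference from marrow was 0.04, with an interval from -0.24 to 0.32, and the direct difference between TANs was 0.32, with an interval from -0.05 to 0.68 (adjusted p = 0.812 and 0.415, edgeR).

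C5ar2, the second C5a receptor, which binds C5a without coupling to G proteins, was lower in TANs. It was at 220.4, 202, 180.0 and 171 CPM in WT BM neutrophils. It was at 147, 123, 94.4 and 83.6 CPM in PyMT TANs and at 107, 99.5, 123 and 113 CPM in PyMT-Cxcr2-/- TANs. All TAN libraries were below the marrow range and the TAN groups overlapped fully. It was 1.65-fold lower in PyMT TANs (log2 fold change -0.72 ± 0.17, adjusted p = 0.00375, edgeR) and 1.59-fold lower in PyMT-Cxcr2-/- TANs (-0.67 ± 0.11, adjusted p = 8.38e-05, edgeR), close to the 1.5-fold limit. PyMT-Cxcr2-/- minus PyMT TANs gave a log2 difference of -0.02, with a 95% interval from -0.41 to 0.37. Within a library, the ratio of C5ar1 to C5ar2 per kilobase does not depend on the scaling. It was 5.94, 5.29, 5.76 and 6.41 in WT BM neutrophils, 6.25, 5.65, 10.7 and 9.06 in PyMT TANs and 9.08, 8.67, 9.54 and 10.7 in PyMT-Cxcr2-/- TANs. The ratio was above the marrow range in all 4 PyMT-Cxcr2-/- libraries and in 2 of 4 PyMT libraries, given as a description. A snRNA gene on the same strand overlaps 3.57% of the C5ar2 exons.

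Cd55, decay-accelerating factor, was the member that fell most from marrow to tumor and the one that separated the TAN groups. WT BM neutrophils had 124, 140.4, 124 and 136 CPM. PyMT TANs had 6.26, 6.52, 7.10 and 8.33 CPM. PyMT-Cxcr2-/- TANs had 11.97, 15.9, 16.9 and 32.9 CPM. The 3 groups did not overlap, with PyMT-Cxcr2-/- TANs between the other two. Cd55 was 17.7-fold lower in PyMT TANs than in marrow (log2 fold change -4.15 ± 0.14, adjusted p = 1.45e-08, edgeR) and 6.17-fold lower in PyMT-Cxcr2-/- TANs (-2.63 ± 0.26, adjusted p = 3.62e-06, edgeR). By p-value it was the tenth of the 17153 genes tested in the first of these. The direct comparison gave a 2.75-fold higher level in PyMT-Cxcr2-/- TANs (log2 fold change 1.46 ± 0.29, 95% interval 0.81 to 2.10, adjusted p = 0.0295, edgeR), beside 12% of all genes whose libraries did not overlap between the TAN groups.

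The direct Cd55 call, though not its direction, was lost in 5 of the 8 fits that left out 1 library. Calls over all genes also fell in those fits, to 10 higher and 13 lower without PyMT replicate 2, from 255 and 110. Leaving out 1 library at a time kept the log2 fold change between 1.10 and 1.64, but the adjusted p of edgeR's test went above 0.05 without PyMT replicate 2 (0.104), 3 (0.0601) or 4 (0.0574) and without PyMT-Cxcr2-/- replicate 3 (0.0766) or 4 (0.0686). PyMT-Cxcr2-/- replicate 4, at 32.9 CPM, is also the library of its group with the most transcripts of secondary granule proteins, which neutrophils make before they leave the marrow. The sum of Ltf, Camp and Ngp was 6251 CPM there, against 1874, 2510 and 2240 CPM in replicates 1, 2 and 3. It was 407 to 688 CPM in PyMT TANs and 28537 to 45367 CPM in WT BM neutrophils, the same order of groups as for Cd55. Within PyMT TANs the library with the highest Cd55, replicate 4, had the lowest granule sum. The part of these transcripts, or of less mature cells, in the Cd55 result was not tested.

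**Figure D3:**
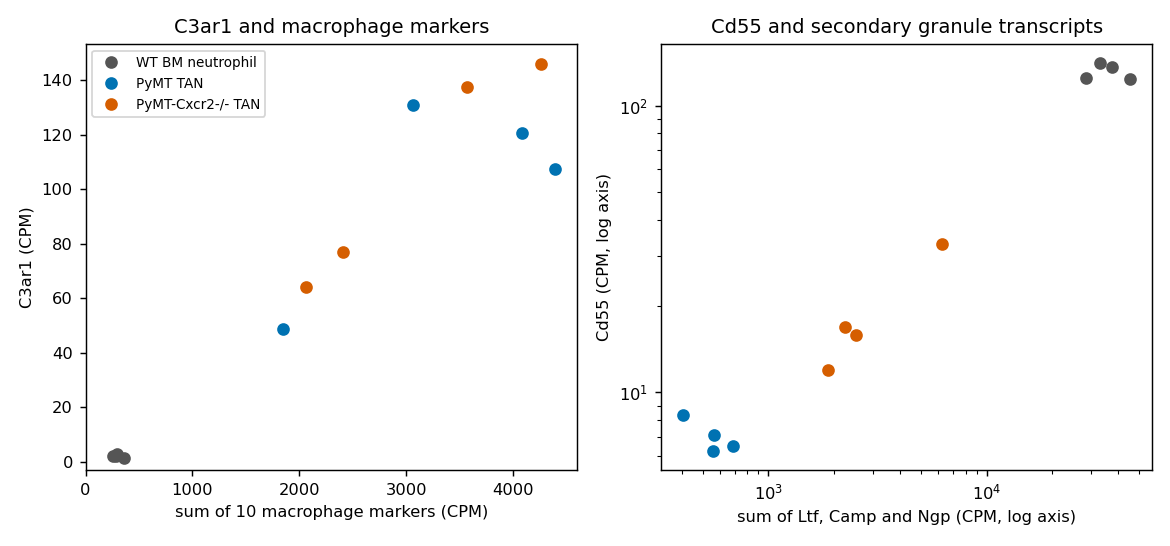
Left, C3ar1 against the sum of 10 macrophage markers in each of the 12 libraries, on linear axes in CPM; right, Cd55 against the sum of Ltf, Camp and Ngp, on log axes in CPM. C3ar1 is lowest among TANs where the macrophage sum is lowest (1847 to 2405 CPM), and the 3 groups take the same order along both axes of the right panel.

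Cr1l, which encodes Crry, was lower in TANs with a narrow spread. It was at 146, 141, 139 and 138 CPM in WT BM neutrophils, with a coefficient of variation of 2.31%. It was at 88.8, 64.7, 90.0 and 76.4 CPM in PyMT TANs and at 70.3, 66.7, 73.9 and 79.3 CPM in PyMT-Cxcr2-/- TANs. The TAN groups overlapped and both lay below marrow. The level was 1.68-fold lower in PyMT TANs (log2 fold change -0.75 ± 0.13, adjusted p = 0.000356, edgeR) and 1.77-fold lower in PyMT-Cxcr2-/- TANs (-0.82 ± 0.09, adjusted p = 2.21e-06, edgeR), with a direct difference of -0.14 and a 95% interval from -0.45 to 0.17. Since Cd55 fell further than Cr1l, the balance of the 2 convertase regulators differed between groups. The ratio of Cr1l to Cd55 per kilobase was 0.551, 0.469, 0.526 and 0.476 in WT BM neutrophils. It was 6.65, 4.65, 5.95 and 4.30 in PyMT TANs and 2.75, 1.97, 2.05 and 1.13 in PyMT-Cxcr2-/- TANs. Per kilobase of all annotated exons (10349 bases for Cr1l, 4853 for Cd55), Cd55 was ahead in marrow and Cr1l in all TAN libraries. Which gene is ahead depends on these lengths, and the lengths of the expressed transcripts were not examined. These ratios were not tested.

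Cd59a, the inhibitor of the membrane pore, was expressed at about 1 CPM or less in most libraries. It was at 0.330, 0.186, 0.459 and 0.701 CPM in WT BM neutrophils. In PyMT TANs it ranged over 0.105, 0.374, 1.23 and 2.27 CPM, and in PyMT-Cxcr2-/- TANs it stayed at 0.754, 0.873, 0.806 and 0.740 CPM. PyMT TANs thus had the lowest and the highest of the 12 values. Cd59a was called 2.06-fold higher in PyMT-Cxcr2-/- TANs than in marrow (log2 fold change 1.04 ± 0.43, adjusted p = 0.0443, edgeR), and this call was lost in 7 of the 8 fits that left out 1 library. The exception was the fit without WT BM replicate 4, the highest of the marrow libraries, and the adjusted p over the 8 fits ran from 0.0206 to 0.123. In PyMT TANs the log2 difference from marrow was 1.32, with a 95% interval from -0.64 to 3.27 (adjusted p = 0.230, edgeR), and it was 0.45 without PyMT replicate 4, the library at 2.27 CPM (adjusted p = 0.712, edgeR). The direct difference between TANs was -0.33, with an interval from -2.11 to 1.45. Counts were 5 to 109 a library.

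The 6 members called against marrow in both TAN groups, C3, Cfp, C3ar1, C5ar2, Cd55 and Cr1l, kept their calls in all 8 fits that left out 1 library in each of these comparisons. The scaling mattered for the smaller ones. With library totals in place of TMM factors the median of all genes moved to 0.53 in PyMT TANs against marrow and to 0.27 in PyMT-Cxcr2-/- TANs against marrow. C5ar2 and Cr1l in PyMT TANs then had log2 fold changes of -0.28 and -0.31, and C5ar2 in PyMT-Cxcr2-/- TANs of -0.49, all below the 1.5-fold limit, while C5ar1 in PyMT TANs turned to 0.10. Relative to the median of all genes these were -0.81, -0.84, -0.76 and -0.43. The directions of C3, Cfp, C3ar1 and Cd55 were the same under both scalings.

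For each member the genes with the most similar pattern over the 12 libraries were sought among 11093 genes, as Pearson's r of log2 CPM. For members that differ widely between marrow and tumor, these values largely follow that split. All are a description. Cd55 was most like Serpinb1a and Ano10 (r = 0.994 for both), C3ar1 like Slc8a1 (0.998) and Ms4a6c (0.997), and Cr1l like Arl6ip6 (0.994) and Ireb2 (0.993). Cfp was most like C130060C02Rik (0.991) and Gapt (0.986), C3 like Itpripl2 and Card10 (0.984 for both), and C5ar2 like Dnajc14 (0.987) and Zfp592 (0.984). C5ar1, whose groups differed least, was most like Carhsp1 (0.932) and Rnf11 (0.929). For the 2 genes of low count, Cfb was most like Gaa (0.985) and Limd1 (0.983) and Cd59a like Nfia (0.884) and Mccc1 (0.857). With the group means removed, over the 8 TAN libraries alone, the r of these pairs ranged from 0.823 (Cd59a with Mccc1) to 0.977 (C3ar1 with Slc8a1). For C5ar1 it was 0.915 and 0.919, and for Cd59a with Nfia 0.927, near or above the values over 12 libraries. The pairs were picked over 12 libraries that include these 8, so a high r here was partly set by the choice.

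The members were set beside 42 other complement genes from a list of the pathway, of which 6 had at most 3 counts in any library. Against marrow, 11 of the 20 tested were higher and 4 lower in PyMT TANs, and the Cxcr2-deficient TANs had 12 of 22 higher and 4 lower, with a median log2 fold change of 1.59 and 1.38. Of all genes tested, 30.1% and 34.4% were called higher and 23.2% and 25.1% lower, so that the counts of lower genes were near the background. Another 22 and 20 of the 42 genes did not pass the filter on low counts. C4b, Colec12 and Clu, near 0 in marrow, passed it only through the TAN libraries, as did C6 in PyMT-Cxcr2-/- TANs. Such genes could hardly be found lower, so the counts of higher genes and the medians are a description. The members, chosen with earlier results of these data known, had mostly lower values (medians -0.74 and -0.75). The C1q chains, which start the classical route and are known as macrophage products, rose: C1qa went from 1.26 ± 0.729 CPM in marrow to 302 ± 110 in PyMT TANs and 251 ± 93.3 in PyMT-Cxcr2-/- TANs (CPM). C1qb rose from 1.31 ± 0.623 CPM to 290 ± 115 and 228 ± 77.0 CPM, and C1qc from 0.872 ± 0.423 CPM to 197 ± 83.4 and 166 ± 60.4 CPM. Summed over the 3 chains, C1q was lowest among TANs in PyMT replicate 1 (386 CPM) and PyMT-Cxcr2-/- replicate 4 (388 CPM), libraries that were also among the lowest in C3ar1. C4b, which forms the classical C3 convertase, rose from 0.213 ± 0.276 CPM to 82.6 ± 63.3 and 46.4 ± 14.1 CPM, but reads of the near-identical C4a may have been split between the copies. C4a was at 0.797, 1.78 and 1.58 CPM on average. The scavenger collectin Colec12 rose from 0.1395 ± 0.0563 CPM to 17.5 ± 12.9 and 20.0 ± 9.33 CPM. Clu, clusterin, rose from 0.436 ± 0.199 CPM to 22.03 ± 22.9 and 20.7 ± 13.7 CPM. C6, a pore component, had 1 count over the 4 marrow libraries and 4.80 ± 4.62 and 2.28 ± 1.41 CPM in the TAN groups. Macrophage and epithelial markers rose in the same libraries (given above), and their part in these results was not tested.

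The integrin receptors for the C3b fragment iC3b moved in opposite directions. Itgam (CD11b, the antigen used for sorting) was at 594 ± 70.1 CPM in marrow, 153 ± 26.1 in PyMT TANs and 244 ± 52.5 in PyMT-Cxcr2-/- TANs (CPM). Its partner Itgb2 (CD18) was at 2800.2 ± 359 CPM in marrow, 752 ± 117 in PyMT TANs and 1222 ± 199.7 in PyMT-Cxcr2-/- TANs (CPM). Both were lower in each TAN group than in marrow (log2 fold changes -1.89 and -1.83 in PyMT TANs, -1.15 and -1.06 in PyMT-Cxcr2-/- TANs, all with adjusted p under 0.05 by edgeR). Itgax (CD11c), the alternative partner, was higher in TANs, at 404 ± 55.2 and 276 ± 7.52 CPM against 141 ± 15.8 CPM in marrow. Cr2, the receptor for C3d, rose from 1.06 ± 0.164 CPM to 3.07 ± 2.13 and 3.17 ± 1.15 CPM. Part of Itgam's exons (68.7%) is shared with an overlapping gene model. In the direct comparison of TANs 0 of the 25 other complement genes tested passed edgeR's test. At an unadjusted p under 0.05 there were 4, a share close to that of all genes (2800 of 18463). DESeq2, run without that filter on 37 other complement genes, called 2 higher, beside 683 higher and 351 lower of 32315 genes. Of the 25 genes, only Itgam, Itgb2 and Itgax had TAN groups that did not overlap, beside 12% of all 18463 genes. Itgam and Itgb2 were higher in PyMT-Cxcr2-/- TANs by 0.67 and 0.70 on the log2 scale (adjusted p = 0.0852 and 0.0587, edgeR). Itgax was lower there by 0.56 (adjusted p = 0.0602, edgeR). The plot of the other complement genes shows the changes from marrow.

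**Figure D4:**
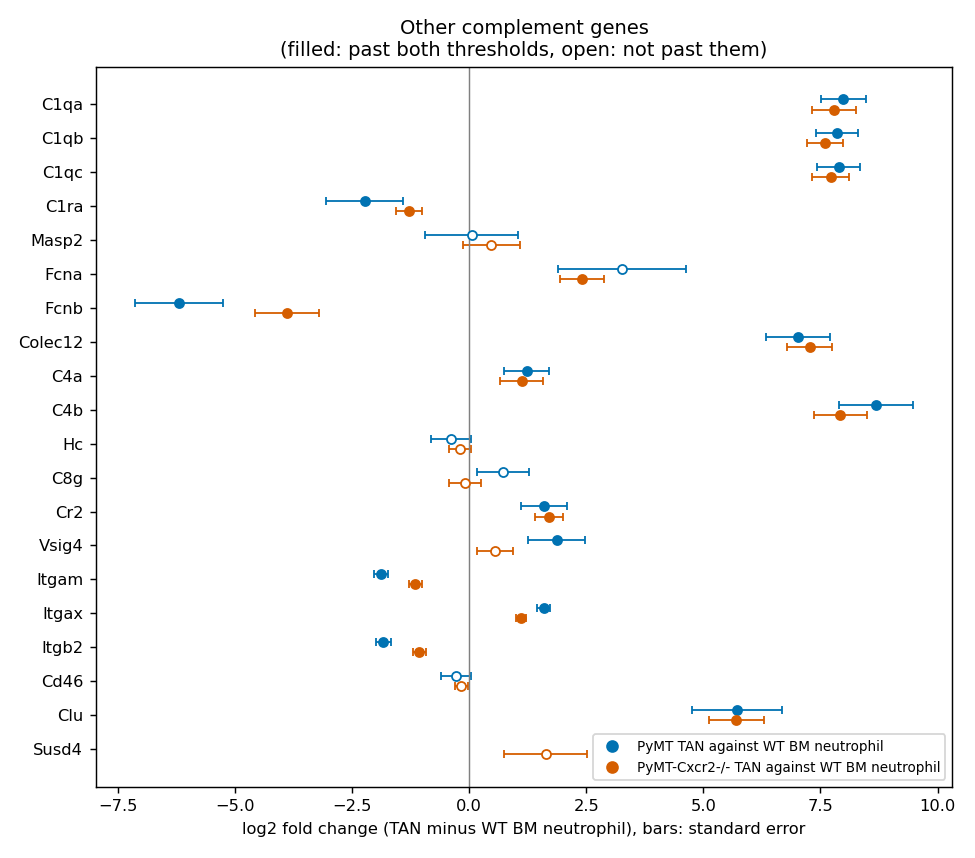
Log2 fold change from WT BM neutrophils of other complement genes, for PyMT TANs (blue) and PyMT-Cxcr2-/- TANs (orange), with bars for the standard error; filled points passed both limits. C1qa, C1qb, C1qc, C4b and Colec12 lie to the right between 7.01 and 8.68. C6, with 1 count in marrow, is not drawn, and genes that failed the filter on low counts in a comparison have no point.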

How the data were processed

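RNA-seq was performed on 12 libraries of sorted mouse neutrophils, 4 in each of 3 groups. Per the labels and the study's methods, the authors depleted rRNA, prepared directional paired-end libraries, trimmed the reads, aligned them to mm10 with STAR and deposited raw counts per gene from HTSeq; versions, annotation release, strand setting and counting mode are not given in the sources used here. Reads on no gene, between 32.0% and 52.5% of a library, and other rows that name no gene were left out.

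Symbols, positions and exon lengths came from GENCODE M21, which matched 55154 of 55335 gene identifiers. Each comparison was fitted to its 2 groups with edgeR 4.0.16 in R 4.3.3 (TMM factors, filterByExpr, robust quasi-likelihood test, Benjamini-Hochberg adjustment over all genes tested, two-sided); a call needed an adjusted p under 0.05 and a 1.5-fold change, the thresholds of the study, which used DESeq2. DESeq2 1.42.0 and other settings were alternatives. SE is the log2 fold change divided by the root of the F statistic. Libraries of a group differed by more than sampling noise (chi-square per degree of freedom 22.6 to 134). In data simulated for PyMT-Cxcr2-/- against PyMT TANs, with 200 of 18463 genes changed, 32 changes of 1 and 153 changes of 3 on the log2 scale were called by edgeR. A floor of 3 counts was used where a group had 0 counts; it covers counting error only.

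The 9 genes, the other lists and the tests were chosen with earlier results of these data known. Named beside the 9 genes were the other complement genes called between TANs, the 4 with the highest mean CPM per list among those called against marrow, the 2 genes most similar to each member, Cxcr2, marker genes and near copies or overlapping genes. A gene that this rule names is not reported here and is not plotted, though it stays in the counts and medians.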

Additional observations from a re-analysis of the deposited data

Results flagged for a closer look

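Cd55 was the member whose change from WT BM neutrophils differed between the TAN groups. It was lower than in marrow by -4.15 on the log2 scale in PyMT TANs and by -2.63 in PyMT-Cxcr2-/- TANs, and the direct comparison of the TANs, which tests the difference itself, gave 1.46 (adjusted p = 0.0295, edgeR), with all 4 PyMT-Cxcr2-/- libraries above all 4 PyMT libraries. Without PyMT-Cxcr2-/- replicate 4, the library with the highest level, the value was 1.10 (adjusted p = 0.0686, edgeR). None of the 26 groups of 4 libraries in which a member was measured above 0 had a library that stood apart by Dixon's criterion.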

How the results depend on the processing

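Of the members' fold changes under the alternatives, 428 kept their direction and side of the thresholds, 20 lost the call and 23 changed sign. Between the TAN groups, 1 member called higher became 0 with the replicate block and with GC and length offsets plus that block, and 0 to 1 when 1 library was left out; Cd55 itself was 1.36 with the replicate block (adjusted p = 0.116, edgeR), and its adjusted p over all alternatives ran from 0.000134 to 0.126. With group means removed, correlations between same-numbered libraries ran from -0.21 to 0.08 (mean -0.04, 12 pairs). In 36 other pairs they ran from -0.33 to 0.31 (mean 0.01). The labels do not say what the numbers stand for, and a shared batch was not tested. The block took the calls over all genes from 255 higher and 110 lower to 4 and 9. Those all-gene counts were also 683 and 351 with DESeq2, 579 and 307 with 12 libraries in 1 fit, 471 and 123 with no filter, 206 and 391 with library totals, 151 and 64 with GC and length offsets, 156 and 59 at a fold of 2, and 10 to 427 and 13 to 100 with 1 library left out. In PyMT TANs against marrow, members called higher went from 1 to 2 with no filter, with 12 libraries in 1 fit and with DESeq2, each time by Cfb, and were 1 to 2 with 1 library left out; those called lower went from 5 to 3 at a fold of 2 and with library totals. In PyMT-Cxcr2-/- TANs against marrow, members called higher went from 2 to 1 with a minimum of 1 CPM in 4 libraries and with the replicate block, both times by Cd59a, to 3 with DESeq2, and were 1 to 2 with 1 library left out; those called lower went from 5 to 1 at a fold of 2. With no filter Cfb took the place of Cd59a, and in the fit of 12 libraries as well.
Mean levels that moved by more than 1 SD under library totals, in CPM, were 250.1 for Cfp, 670.3 for C5ar1, 159 for C5ar2, 109 for Cd55 and 117 for Cr1l in WT BM neutrophils, and 714 for C5ar1, 8.32 for Cd55 and 93.7 for Cr1l in PyMT TANs.

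The sign changes were all in values that were not called. C3ar1 between the TAN groups was -0.12 with library totals and -0.13 to 0.27 with 1 library left out. C5ar2 there was 0.027 with RLE factors, 0.028 with no filter, 0.0080 with the replicate block, 0.023 with GC and length offsets, 0.058 with these and the block, 0.029 with DESeq2 and -0.14 to 0.18 with 1 library left out. Cd59a there was 0.37 with the replicate block, 0.37 with GC and length offsets and the block, and -0.64 to 0.49 with 1 library left out. C5ar1 was 0.10 in PyMT TANs against marrow with library totals. In PyMT-Cxcr2-/- TANs against marrow it was -0.10 in the fit of 12 libraries, -0.0015 with GC and length offsets, -0.0093 with these and the block, and -0.033 to 0.15 with 1 library left out. The causes were not tested. Cfb and Cd59a had few reads, at most 27 and 109 counts in a library, and Cfb shares 79.5% of its exon length with Gm20547. The part of depth or of this overlap in the low counts was not tested.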

Other observations

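Other complement genes, named after their values were seen, are given as values. Ficolin B (Fcnb), a lectin that marrow neutrophil precursors make, was at 25.9 ± 5.99 CPM in WT BM neutrophils and reached 0.370 ± 0.584 in PyMT TANs and 1.59 ± 1.92 in PyMT-Cxcr2-/- TANs on the same scale (± is SD, n = 4), and was called lower in both TAN groups (log2 fold changes -6.20 and -3.89, edgeR). C1ra, a protease of the C1 complex, was called lower in both as well (-2.23 and -1.29). It was at 4.62 ± 0.887 CPM in marrow, 0.921 ± 1.21 in PyMT TANs and 1.72 ± 0.572 in PyMT-Cxcr2-/- TANs. Hc, which encodes C5, was at 3.40 ± 0.567 CPM in marrow, 2.48 ± 1.38 in PyMT TANs and 2.70 ± 0.632 in PyMT-Cxcr2-/- TANs and was not called in any comparison. Cfd, factor D, the protease that activates factor B, reached at most 20 counts in any library. Vsig4, a C3b receptor of tissue macrophages, was low, at 0.679 ± 0.197 CPM in marrow and 0.912 ± 0.282 in PyMT-Cxcr2-/- TANs. In PyMT TANs it was at 2.37 ± 1.97 CPM, from 1.01 to 5.29. It was called higher than in marrow in PyMT TANs (log2 fold change 1.87) and not called in PyMT-Cxcr2-/- TANs (0.56). The direct difference between the TANs was -1.38 (adjusted p = 0.285, edgeR). The part of macrophage RNA in these values was not tested.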
